A study of Mus musculus with 577 samples.

Results

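The germline small RNA pathway was followed through 8 genes, Piwil2, Mov10l1, Ddx4, Tdrd1, Tdrd9, Mael, Dicer1 and Ago2. They were chosen by name, with earlier results of these data known, and were read from every table of gene counts. The genes are on GRCm38 at chr14:70372477-70429383 (-) for Piwil2, chr15:88982909-89055152 (+) for Mov10l1, chr13:112598333-112652475 (-) for Ddx4, chr19:56826209-56870012 (+) for Tdrd1, chr12:111971559-112068854 (+) for Tdrd9, chr1:166201201-166238747 (-) for Mael, chr12:104687742-104751952 (-) for Dicer1 and chr15:73095844-73184935 (-) for Ago2. They are 8 of the 22060 protein-coding genes in those tables, and all 8 had reads in oocytes of every set. Levels are given as reads per 1000000 protein-coding reads of the library (RPM) or as log2 (RPM+1), and a mean ± SD of log2 (RPM+1) covers single cells. The labels name no mouse for single cells, so that each group of cells counted as 1 sample, no p-value was taken between groups of cells, and a difference of mean log2 (RPM+1) of at least 1 in size was called higher or lower. Ranges without overlap are given as descriptions, since the share of all genes without overlap was not taken.

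The 577 samples hold oocytes and granulosa cells cut by laser capture microdissection (LCM) from alcohol-fixed frozen ovary sections of 8-week-old female mice, together with mouse embryonic stem cells (mESCs). The strain and genotype of the mice are not given in the sources used here, and the sections were stained with cresyl violet. DRaqL lyses captured cells with deoxycholate, whose denaturing effect is then quenched with a milder detergent. In DRaqL-SC3-seq, which counts the 3′ ends of transcripts, there were 14 oocytes of primary follicles, 30 oocytes of secondary to early antral follicles, 31 granulosa cells neighboring an oocyte and 26 non-neighboring ones. The mESCs, grown under 2iLIF, were 45 freshly dissociated cells and 36 cells cut by LCM from frozen cell blocks. SMART-Seq v4 without DRaqL was run on 7 primary-follicle and 11 later oocytes with 34 granulosa cells, and with DRaqL on 6 and 9 oocytes with 39 granulosa cells. DRaqL-Smart-seq2 was run on 34 granulosa cells of alcohol-fixed sections and, with a protease step, on sections fixed for 24 h in formalin, with 5 and 7 oocytes and 24 granulosa cells. LCM-seq was run on 37 granulosa cells. From 1 proestrus mouse, 1 ovary gave 8 oocytes and 70 granulosa cells by LCM and DRaqL-Smart-seq2, and the other gave 14 grown oocytes and 35 granulosa cells that were freshly dissociated in dibutyryl-cAMP and amplified by Smart-seq2. Further libraries were 7 neighboring and 7 non-neighboring pools of 10 granulosa cells, 7 bulk granulosa samples, 8 oocytes cut in 2 serial sections each, and libraries of whole cDNA with Y-shaped adapters of 5 oocytes and 10 mESCs. By the study's text, reads of the libraries with Y-shaped adapters are biased toward the 3′ ends. In oocytes the last exon held between 51.8% (Tdrd9) and 94.2% (Tdrd1) of the exon reads of each of the 8 genes. Exons without reads are therefore not read here as missing from transcripts.

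Library totals over protein-coding genes ran from 873206 to 2338750 reads in primary-follicle oocytes of DRaqL-SC3-seq, from 1309694 to 1887918 in the later oocytes, and from 162033 to 1429292 in their granulosa cells. Over all libraries they ran from 12748 to 17506401. The labelled cell types carried their markers. All 14 oocyte markers had reads in both oocyte stages of DRaqL-SC3-seq, summing to a median of 9447 RPM in primary-follicle and 36920 RPM in later oocytes. In primary-follicle oocytes of DRaqL-SMART-Seq v4 11 of the 14 had reads, with Obox2, Obox5 and Oog1 at 0. The 5 pluripotency markers summed to a median of 1499 RPM in LCM mESCs. The same 14 oocyte markers summed to between 0 and 17300 RPM in single neighboring granulosa cells (median 2943) and to between 0 and 14360 RPM in non-neighboring ones (median 64.2), so that granulosa cells are given with and without the cells richest in them.

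Small RNAs of the germline are made and used by a conserved set of proteins. PIWI proteins bind piRNAs and silence transposons, and male mice that lack core proteins of the pathway are sterile. Oocytes of the mouse also carry piRNAs, but they depend chiefly on endogenous siRNAs, which Dicer cuts from double-stranded RNA and Argonaute 2 uses to cleave transcripts. Of the genes followed here, Piwil2 encodes a PIWI protein, Mov10l1 an RNA helicase that loads piRNA precursors, Ddx4 (mouse vasa homolog) a DEAD-box helicase of germ granules, and Tdrd1 and Tdrd9 Tudor-domain proteins, the second also a helicase. Mael encodes Maelstrom, a germ granule protein of the piRNA pathway, Dicer1 the ribonuclease that makes small RNAs, and Ago2 the slicing Argonaute.

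Promoter windows of 300 bases, 250 before to 50 after the start, are shown because Mov10l1, Tdrd1, Tdrd9 and Mael were high together in oocytes. The count of Ddx4 did not go with theirs, and its window is shown as that of another gene of the pathway. The E-box CACGTG, a motif read by basic helix-loop-helix factors, is set in capitals. The windows come from RefSeq on GRCm38.p6 and were found for 6 of the 8 genes, with none for Piwil2 and Ago2. They lie at chr15:88982744-88983043 (+) for Mov10l1, chr13:112652261-112652560 (-) for Ddx4, chr19:56825959-56826258 (+) for Tdrd1, chr12:111971309-111971608 (+) for Tdrd9, chr1:166238695-166238994 (-) for Mael and chr12:104751903-104752202 (-) for Dicer1, each written 5′ to 3′ on the strand of its gene. The sequence of Dicer1, which has no match, is shown for contrast.
Mov10l1: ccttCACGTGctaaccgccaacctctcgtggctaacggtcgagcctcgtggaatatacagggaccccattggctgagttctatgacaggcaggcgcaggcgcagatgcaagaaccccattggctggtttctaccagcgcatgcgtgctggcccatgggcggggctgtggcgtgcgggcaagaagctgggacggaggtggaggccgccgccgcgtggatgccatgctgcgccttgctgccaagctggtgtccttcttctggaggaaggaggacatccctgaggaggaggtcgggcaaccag
Ddx4: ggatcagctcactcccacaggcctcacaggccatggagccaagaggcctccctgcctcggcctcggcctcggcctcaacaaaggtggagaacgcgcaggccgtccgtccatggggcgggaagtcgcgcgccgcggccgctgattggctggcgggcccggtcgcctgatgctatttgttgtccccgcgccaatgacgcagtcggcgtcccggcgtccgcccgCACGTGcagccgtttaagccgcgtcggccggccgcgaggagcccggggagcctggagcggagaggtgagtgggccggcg
Tdrd1: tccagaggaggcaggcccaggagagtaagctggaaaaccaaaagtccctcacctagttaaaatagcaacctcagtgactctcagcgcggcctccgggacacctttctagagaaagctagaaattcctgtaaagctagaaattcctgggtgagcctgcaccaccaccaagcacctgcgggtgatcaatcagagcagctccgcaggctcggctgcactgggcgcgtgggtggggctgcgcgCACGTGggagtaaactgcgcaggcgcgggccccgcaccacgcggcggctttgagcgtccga
Tdrd9: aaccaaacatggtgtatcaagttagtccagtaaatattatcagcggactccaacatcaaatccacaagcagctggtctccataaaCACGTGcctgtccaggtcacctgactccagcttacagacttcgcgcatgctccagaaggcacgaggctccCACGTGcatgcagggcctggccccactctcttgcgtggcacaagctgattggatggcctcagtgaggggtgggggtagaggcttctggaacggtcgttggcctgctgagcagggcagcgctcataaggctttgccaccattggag
Mael: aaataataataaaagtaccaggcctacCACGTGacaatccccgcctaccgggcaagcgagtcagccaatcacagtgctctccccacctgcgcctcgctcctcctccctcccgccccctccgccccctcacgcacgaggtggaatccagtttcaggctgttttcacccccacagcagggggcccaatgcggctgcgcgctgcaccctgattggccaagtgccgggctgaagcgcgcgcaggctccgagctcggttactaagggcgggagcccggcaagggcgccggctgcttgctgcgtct
Dicer1: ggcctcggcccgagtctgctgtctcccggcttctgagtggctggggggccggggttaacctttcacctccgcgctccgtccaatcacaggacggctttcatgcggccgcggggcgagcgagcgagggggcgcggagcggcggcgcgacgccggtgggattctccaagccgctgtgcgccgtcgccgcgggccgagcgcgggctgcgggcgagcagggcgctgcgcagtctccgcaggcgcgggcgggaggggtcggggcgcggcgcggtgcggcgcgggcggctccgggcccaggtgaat

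CACGTG, which reads the same on both strands, was present in 5 of the 6 windows, against 7.15% of 32851 windows and 8.09% of 27025 genes. It began -246 bases from the start in Mov10l1, -29 in Ddx4, -11 in Tdrd1, -223 in Mael, and at both -165 and -95 in Tdrd9. Among the other genes of the piRNA list it was found in 3 of 14 with a window, and among microRNA and RNAi genes in 1 of 12. GCGGGAA, searched on both strands, was found in 1 of the 6 windows, that of Ddx4, against 4.6% of all windows, and CCAAT on both strands in 5 of 6 against 37.4%. The windows held between 10 and 49 CpG, against a median of 7 over all windows. CACGTG itself holds a CpG, and its share among windows of like CpG count was not taken. These matches describe letters in the windows, and binding of a factor was not measured.

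Across 28 groups of single cells, 5 of the genes, Piwil2, Mov10l1, Tdrd1, Tdrd9 and Mael, were higher in oocyte groups than in the other cells, with Piwil2 in dissociated grown oocytes as the exception, whereas Dicer1 and Ago2 were present in all cell types and the count of Ddx4 was high everywhere. The group means of Tdrd1 lay between 6.68 and 8.91 in the 10 oocyte groups, between 0 and 3.16 in the 16 granulosa groups, and at 0 and 0.10 in the mESC groups. Mael lay between 6.16 and 8.37 in oocytes and at no more than 1.82 in granulosa cells and 0.46 in mESCs. Tdrd9 lay between 3.95 and 7.31 in oocytes, at no more than 2.04 in granulosa cells and at no more than 0.20 in mESCs. For these genes the oocyte and granulosa groups were apart in every protocol.

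Mov10l1 had group means between 6.41 and 7.81 in the 4 primary-follicle groups and between 2.65 and 5.21 in the 6 groups of later oocytes, against at most 1.00 in granulosa cells and 0.76 in mESCs. Piwil2 lay between 5.43 and 6.23 in the first and between 1.11 and 4.13 in the second, and its highest granulosa mean, 1.80 in neighboring cells of DRaqL-SMART-Seq v4, was above its mean in the dissociated grown oocytes. Dicer1 lay between 5.86 and 7.05 in primary-follicle oocytes, between 7.57 and 8.80 in later oocytes, between 2.49 and 6.31 in granulosa cells and at 4.73 and 5.18 in mESCs. Ago2 was present in all types, with 3.86 to 7.17, 6.02 to 6.89, 2.54 to 6.17 and 6.19 to 6.52 in the same order.

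**Figure D1:**
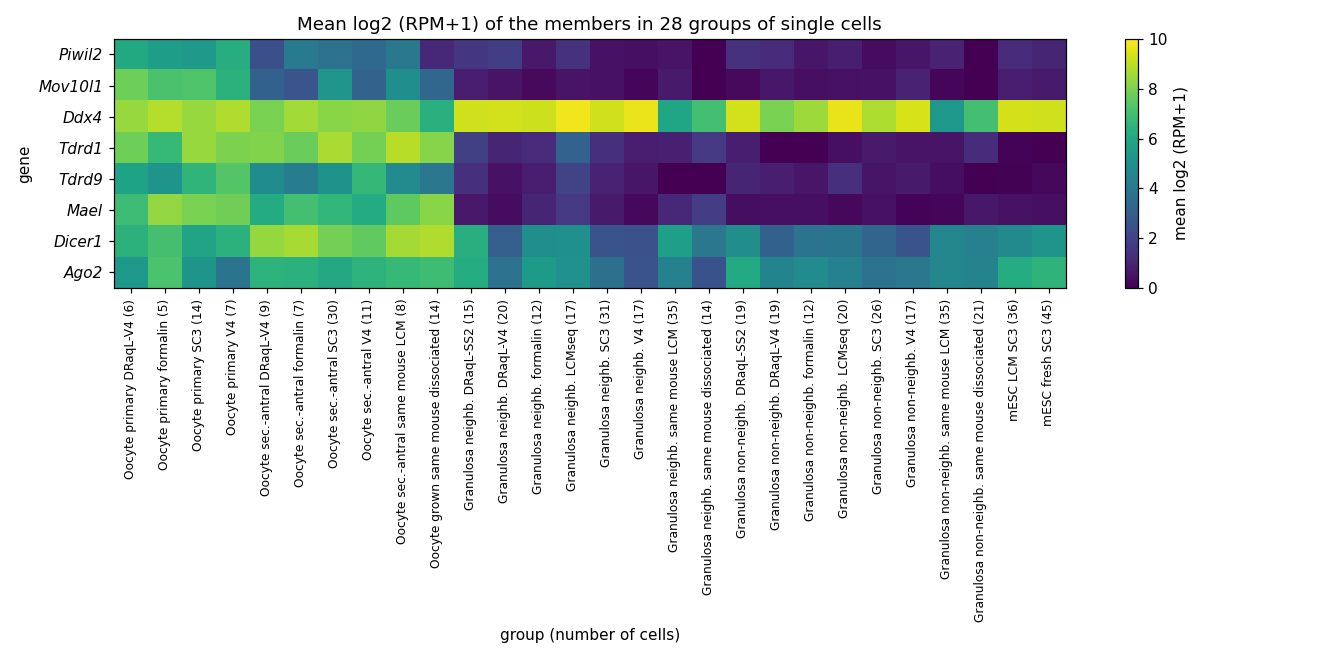
Heat map of the mean log2 (RPM+1) of each gene (rows) in each of 28 groups of single cells (columns, with the number of cells in parentheses), on a colour scale from 0 to 10. Tdrd1, Tdrd9 and Mael are brighter in every oocyte column than in the others, as Mov10l1 is and Piwil2 except in dissociated grown oocytes (1.11), while the row of Ddx4 is bright in nearly every column.

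In DRaqL-SC3-seq the order of the 6 groups from high to low differed by gene. For Tdrd1 the later oocytes (8.75 ± 0.31, SD, n = 30 cells) and the primary-follicle oocytes (8.45 ± 0.63, n = 14) did not differ by more than the larger SD, and a step of 7.06 led down to neighboring granulosa cells. For Piwil2, Mov10l1 and Mael the primary-follicle oocytes stood first and the later oocytes second, with both steps above the larger SD, and the granulosa and mESC groups below them did not differ among themselves beyond it. For Tdrd9 the step between the stages, 1.40, was within the SD of 2.15 in primary-follicle oocytes. For Dicer1 the later oocytes stood above all others by a step of 2.07 over the larger SD, and no step below them passed it. For Ago2 and Ddx4 no step between neighbors in the order was larger than the SDs.

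**Figure D2:**
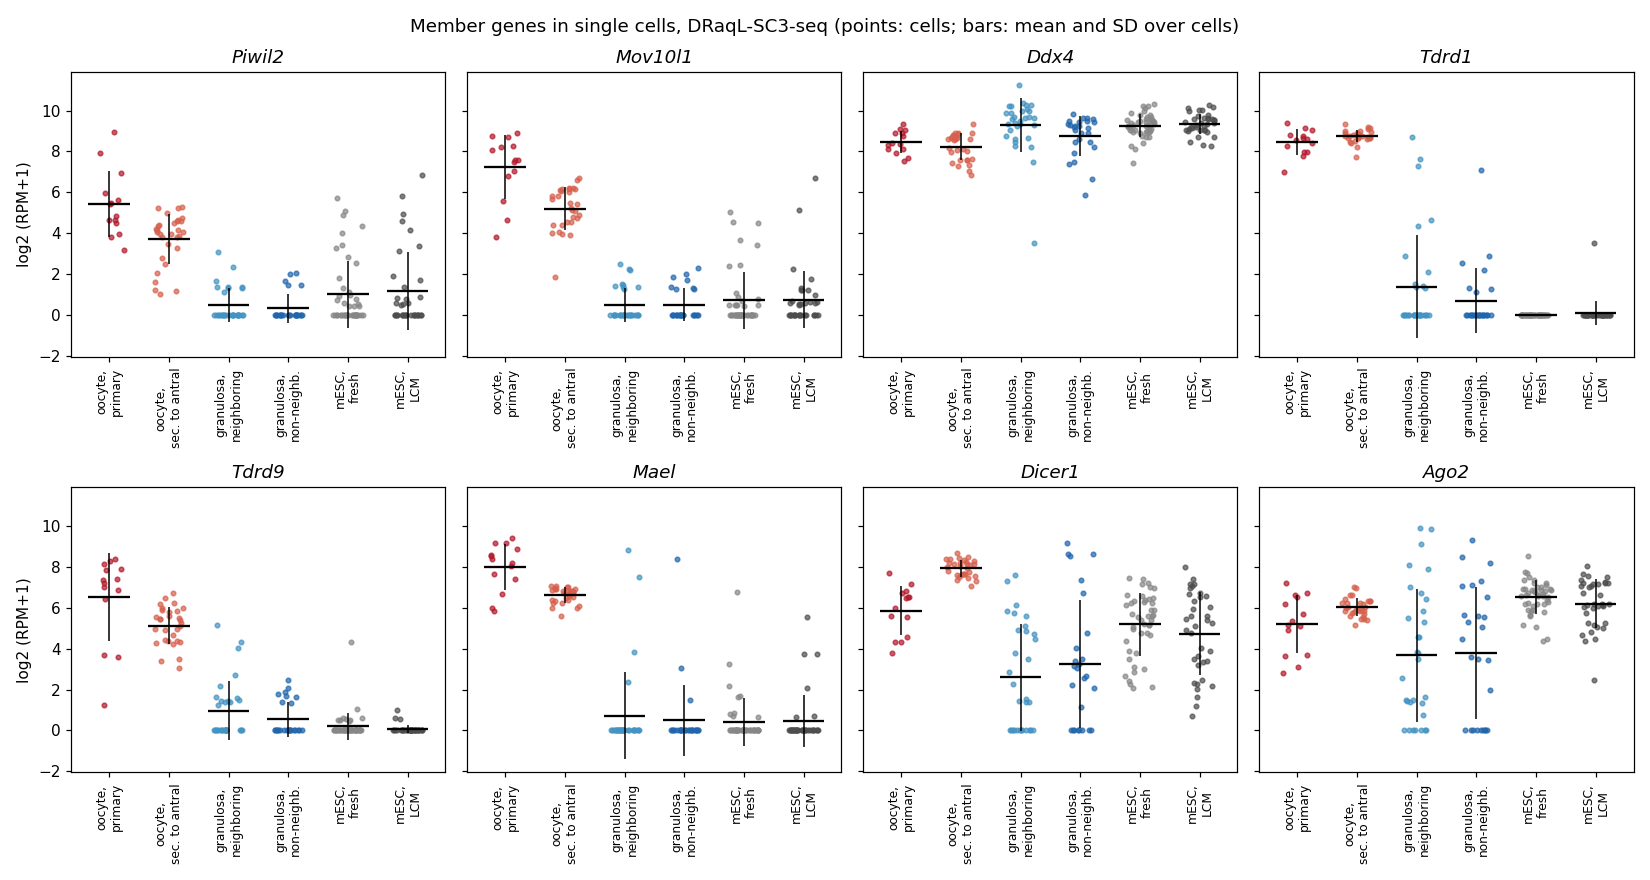
Log2 (RPM+1) of each gene (one panel each) in single cells by DRaqL-SC3-seq, with points for cells and black bars for the mean and SD over cells, in 14 and 30 oocytes, 31 and 26 granulosa cells and 45 and 36 mESCs. The means of both oocyte groups lie above those of the granulosa cells and mESCs for Piwil2, Mov10l1, Tdrd1, Tdrd9 and Mael, with single granulosa cells or mESCs inside the oocyte range, and the granulosa cells spread from 0 to the level of oocytes for Dicer1 and Ago2.

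The study compared oocytes by follicle stage. In DRaqL-SC3-seq, Piwil2, Mov10l1, Tdrd9 and Mael were lower in oocytes of secondary to antral follicles than in those of primary follicles, and Dicer1 was higher. Thus 4 of the 8 genes were lower by at least 1, where 14.9% of 13686 genes were, and 1 was higher, where 32% were. The median difference over the 8 genes was -0.80 and over all genes 0.33. Libraries of these stages also differed in their oocyte markers, as given above, and in 10 granulosa markers, which summed to a median of 465.9 RPM in primary-follicle oocytes (Inhbb at 0) and 142.9 RPM in later ones. The part of either in these differences was not tested. Since RPM is a share of a library, fewer transcripts of a gene and more transcripts of others cannot be told apart.

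Mov10l1 had 13.2, 189.9 and 473.5 RPM as the lowest, median and highest value over the 14 primary-follicle oocytes, and 2.69, 39.3 and 101.6 RPM over the 30 later oocytes. Every later oocyte lay below the median of the first group, and the groups overlapped. The difference of mean log2 (RPM+1), later minus primary, was -2.04, between 7.25 ± 1.56 and 5.21 ± 1.05 (SD). In summed counts it had 222.4 RPM (exact Poisson 95% interval 216.1 to 228.9) and 43.9 RPM (42.1 to 45.9). Such intervals cover counting error only.

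Piwil2 had 8.09, 34.9 and 491.0 RPM in primary-follicle oocytes and 1.06, 15.9 and 38.4 RPM in later ones. The highest later oocyte stood near the median of the first group, and the groups overlapped. The means were 5.43 ± 1.61 and 3.73 ± 1.24, a difference of -1.70.

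Mael had 56.7, 309.9 and 667.3 RPM in primary-follicle oocytes and 47.8, 106.1 and 132.4 RPM in later oocytes, in which it was narrowly spread (6.61 ± 0.37 against 7.99 ± 1.14, difference -1.38). Tdrd9 had 1.35, 154.0 and 331.6 RPM in the first group and a median of 39.2 RPM in the second, none of whose oocytes was below 7.28 RPM, with a difference of -1.40 that lay within the SD of the first group. In this set both genes were more alike between cells in the later stage. The reverse held in SMART-Seq v4, with SDs of 0.31 in primary-follicle and 0.90 in later oocytes for Tdrd9, and 0.33 and 0.69 for Mael. In DRaqL-SMART-Seq v4 the later SDs were again smaller, with 2.96 and 0.97 for Tdrd9 and 1.70 and 0.35 for Mael. After formalin the SD was smaller later for Tdrd9 (2.74 and 1.82) and not for Mael (0.83 and 0.89).

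Tdrd1, whose protein binds PIWI proteins, had 126.0, 381.3 and 670.4 RPM in primary-follicle oocytes and 210.6, 429.9 and 657.5 RPM in later ones. The ranges lay almost on each other, and the difference was 0.30. The count of Ddx4 was likewise near level, with medians of 332.5 and 377.5 RPM and a difference of -0.23.

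Dicer1 had 12.6, 74.6 and 208.6 RPM in primary-follicle oocytes and 131.8, 257.8 and 403.2 RPM in later oocytes. The median of the later oocytes lay above the highest primary-follicle oocyte, and the groups overlapped. The means were 5.86 ± 1.21 and 7.92 ± 0.40. The difference of means was 2.07. In summed counts, a different average, Dicer1 had 77.4 RPM (73.7 to 81.2) and 250.8 RPM (246.3 to 255.4), a ratio of 3.24. Ago2, its partner in cleavage, had medians of 37.0 and 59.6 RPM, and its difference of 0.82 was within the SD of primary-follicle oocytes, 1.42.

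The same contrast was available in 3 other sets of oocytes, and the lower levels of Mov10l1 and Piwil2 and the higher level of Dicer1 appeared in each. Mov10l1 differed by -3.22 in SMART-Seq v4, -4.72 in DRaqL-SMART-Seq v4 and -4.48 after formalin, and in all 3 sets no later oocyte reached the lowest primary-follicle oocyte. After formalin the 5 primary-follicle oocytes had between 84.1 and 312.1 RPM of Mov10l1 and the 7 later oocytes between 1.10 and 10.6 RPM. In DRaqL-SMART-Seq v4 they had between 77 and 440.7 RPM, and between 0 and 33.5 RPM. Piwil2 differed by -2.83, -3.64 and -1.42, and its ranges did not overlap in DRaqL-SMART-Seq v4, with 43 to 152.1 RPM against 0 to 38.6 RPM.

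Dicer1 differed by 1.20, 2.00 and 1.64 in the same sets. Its ranges did not overlap in DRaqL-SMART-Seq v4, with 32.1 to 173.3 RPM in 6 primary-follicle and 209.3 to 474.7 RPM in 9 later oocytes, nor after formalin, with 67.6 to 204.3 RPM in 5 and 321.1 to 476.9 RPM in 7. The share of all genes whose ranges parted in such small groups was not taken. Mael differed by -1.67, -0.70 and -1.36 and Tdrd9 by -0.67, -0.93 and -0.94. After formalin the primary-follicle oocytes numbered 1 and 2 had 2.16 and 5.51 RPM of Tdrd9, and the others between 128.9 and 151.4 RPM. In the same order Tdrd1 had 42.1 and 40.6 against 168.3 to 201.9 RPM, and Dicer1 73.4 and 67.6 against 197.2 to 204.3 RPM. The count of Ddx4 was also lower in oocytes 1 and 2, Mov10l1 was higher, and Mael, Piwil2 and Ago2 did not part them. The means after formalin average over this split. In DRaqL-SMART-Seq v4, 1 primary-follicle oocyte of 467352 reads had no read of Tdrd9 and 3.55 of Mael on the log2 scale, and without it, a choice made after seeing the data, the differences were -2.09 for Tdrd9, -1.37 for Mael and 0.65 for Ago2.

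Ago2 differed in direction between sets, with 2.60 in SMART-Seq v4, 1.14 in DRaqL-SMART-Seq v4 and -0.79 after formalin. Tdrd1 was within 1 of no difference except after formalin, at 1.02, where the primary-follicle oocytes had 6.68 ± 1.17. By count, 2 genes were higher and 3 lower in SMART-Seq v4, where 33% and 15.7% of all genes were. In DRaqL-SMART-Seq v4, 2 were higher and 2 lower, against 35.2% and 22.2%, and without the oocyte named above 1 was higher and 4 lower. After formalin, 2 were higher and 3 lower, against 27% and 24.7%. The share of higher genes was thus at or below the background in each set. The share of lower genes was above it in SMART-Seq v4 and after formalin, with 3 genes in each. In DRaqL-SMART-Seq v4 it was near the background with all oocytes and above it without the oocyte named above. With so few genes in each count, the excess of lower genes is a description and is not read as a repeated result. Apart from that oocyte left out, the counts of lower genes were not put under the alternatives given below. The sets differ in protocol as well as in cells, and by the study's text its amplification methods shared an ovary, so that the sets are not replicate mice.

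**Figure D3:**
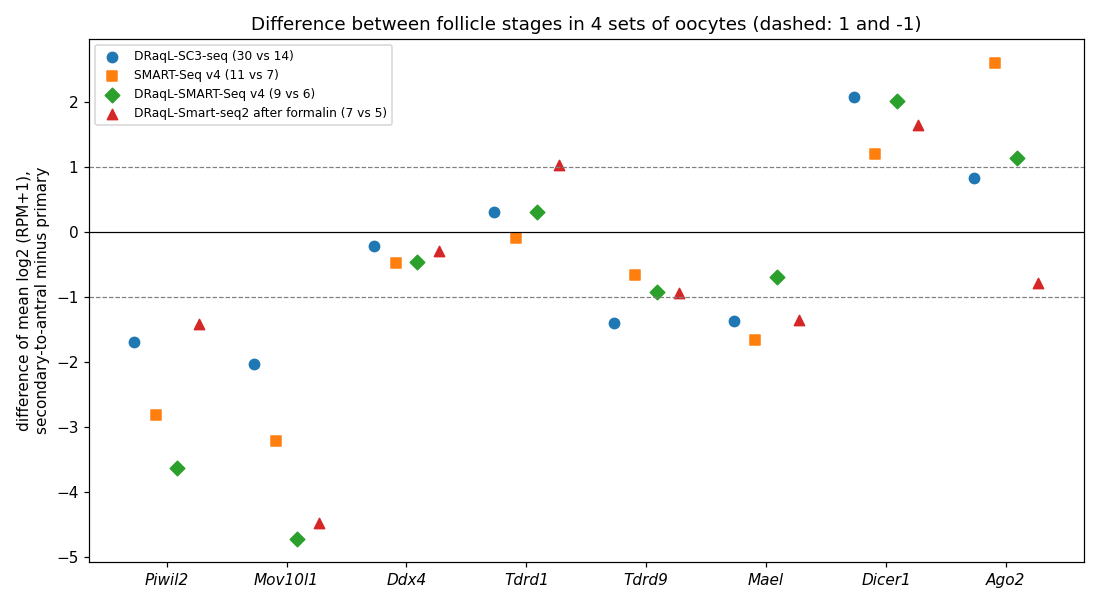
Difference of mean log2 (RPM+1) between oocytes of secondary to antral and of primary follicles for each gene, in 4 sets of oocytes shown by symbol, with dashed lines at 1 and -1. Mov10l1 and Piwil2 lie below -1 and Dicer1 above 1 in all 4 sets, Ddx4 stays within 1 of 0 in all 4 and Tdrd1 in all but the formalin set (1.02), and Ago2 lies on both sides of 0.

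Granulosa cells of the same sections served as the somatic reference. In DRaqL-SC3-seq, 7 of the 8 genes were higher by at least 1 in the 44 oocytes than in the 57 granulosa cells, as were 71.4% of all genes tested, so that the count by itself is near the background. Their median difference, with the count of Ddx4 included, was 4.58, against 1.89 over all genes. The genes were chosen by name with earlier results known, so that this size is a description. The share of all genes with so large a difference was not taken. Tdrd1 differed by 7.57, Mael by 6.43, Mov10l1 by 5.36, Tdrd9 by 4.79, Dicer1 by 4.37, Piwil2 by 3.85 and Ago2 by 2.04, whereas the count of Ddx4 was lower in oocytes, by -0.74.

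The piRNA genes had reads in every one of the 44 oocytes and in few granulosa cells. Mael had reads in 7 of 57 granulosa cells, Piwil2 in 14, Mov10l1 in 17, Tdrd1 in 18 and Tdrd9 in 21. After thinning every library to 162033 reads, Mael and Tdrd1 remained detectable in 44 of 44 oocytes and in 5 and 9 granulosa cells, and Piwil2 in 36 oocytes and 5 granulosa cells. Detection of Piwil2 in oocytes therefore depended on depth, and that of Mael and Tdrd1 did not at this depth.

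Granulosa cells with these reads were few and could be high. The highest granulosa cell had 445.7 RPM of Mael and 414.2 RPM of Tdrd1, within the range of oocytes, while the median was 0 for both. The differences were also taken without cells rich in oocyte markers. Of the 57 granulosa cells, 16 had at least 10% of the median oocyte's marker sum. Without those cells the differences were 8.12 for Tdrd1 and 6.88 for Mael, larger than with them. Without the 15 granulosa cells numbered 73 to 100, which was tried after seeing the data, 7 genes were again higher. The part of oocyte RNA in these granulosa values was not tested further.

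Dicer1 and Ago2 spread widely over granulosa cells, from no read to levels above the highest oocyte. Dicer1 had reads in 37 of 57 cells, with between 0 and 568.3 RPM and group medians of 1.85 RPM in neighboring and 6.27 RPM in non-neighboring cells. Ago2 had reads in 41 of 57 cells and reached 961.3 RPM. In summed counts Ago2 was lower in oocytes, with 63.5 RPM (61.6 to 65.4) against 90.7 RPM (87.5 to 94), although its mean log2 (RPM+1) was higher, 5.75 ± 0.94 against 3.72 ± 3.21. Its direction against granulosa cells thus depended on how cells were averaged.

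In the other sets the differences had the same direction for the piRNA genes, but detection did not always part the cells: Piwil2 had reads in 12 of 15 oocytes and 22 of 39 granulosa cells in DRaqL-SMART-Seq v4, and in 10 and 5 after thinning to 133799 reads. In SMART-Seq v4, 7 genes were higher in oocytes (73.1% of all genes) and the count of Ddx4 was lower, by -1.04. In DRaqL-SMART-Seq v4, 7 were higher (51%), after formalin 7 (53.1%), in the LCM ovary of the single mouse 8 (63.3%) and in its dissociated ovary 7 (61%). Ddx4 was the exception in each set but the LCM ovary of the single mouse, where it differed by 2.1. Tdrd1 differed by between 6.66 and 8.20 in these 5 sets and Mael by between 6.09 and 7.09. Mael did not overlap between oocytes and granulosa cells in SMART-Seq v4, after formalin and in the LCM ovary of the single mouse, and Tdrd1, Tdrd9 and Dicer1 did not in the dissociated ovary. The share of all genes without overlap was not taken in these sets. In the dissociated ovary the granulosa libraries were the shallowest, down to 12748 reads, and neither Piwil2, Mov10l1 nor Tdrd9 had a read in them. After thinning to 12748 reads, Tdrd9 remained detectable in 3 of the 14 oocytes, Mov10l1 in 2 and Piwil2 in 0. For these 3 genes the lack of granulosa reads therefore does not part the cell types at that depth.

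Against mESCs by LCM, 6 of the 8 genes were higher in oocytes of DRaqL-SC3-seq, where 54.2% of all genes were, and the median difference was 4.09 against 1.17. Tdrd1 was nearly absent from the stem cells, with reads in 1 of 36 LCM cells and 0 of 45 fresh cells, and differed by 8.55. Tdrd9 had reads in 3 of 36 LCM mESCs and Mael in 6, and in LCM mESCs none of the 3 genes overlapped with oocytes. The share of all genes without overlap was not taken here either. For Tdrd9 and Mael the gap was narrow, with at most 0.976 and 45.5 RPM in LCM mESCs. The lowest oocytes had 1.35 and 47.8 RPM. In fresh mESCs Tdrd9 reached 18.7 RPM and Mael a log2 (RPM+1) of 6.74 in single cells, which lies within the range of oocytes for both, while their medians were 0. Piwil2 had reads in 17 of 36 and Mov10l1 in 18, reaching 116.1 and 101.8 RPM in single cells. Dicer1 had reads in every mESC, at 4.73 ± 2.01 in LCM cells. Ago2 was 6.19 ± 1.19 in LCM mESCs and 5.75 ± 0.94 in oocytes, a difference of -0.44 within the SDs.

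The count of Ddx4, a gene known from germ cells, was as high in granulosa cells and mESCs as in oocytes, and its reads were therefore looked at by exon. In DRaqL-SC3-seq, Ddx4 had between 309.7 and 1216 RPM in every LCM mESC and a median of 763.6 RPM in neighboring granulosa cells, against a median of 377.5 RPM in later oocytes. In the libraries with Y-shaped adapters, which count reads on exons, 5 oocytes had 2096 reads on 15 of the 22 exons of Ddx4, or 59.3 per 1000000 exon reads, with between 25.1 and 77.5 on that scale in each oocyte. The 10 mESCs had 124 reads, 1.20 per 1000000, in 3 cells and on the last exon only. Exon-exon junctions of Ddx4 had 144 reads on 5 junctions in oocytes and 0 reads in mESCs.

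The counts of the 3′ libraries took reads within 10 kb of an annotated 3′ end. The processed pseudogene Gm3226 lies 3248 bases beyond the 3′ end of Ddx4, at chr13:112593743-112595084 on the minus strand of GRCm38, as Ddx4 is. Of the 1342 bases of Gm3226, 98.9% lie in runs of 20 bases shared with the transcript of Tuba1b, an alpha-tubulin gene, 95.4% with Tuba1a and 94% with Tuba1c, and 0% with Ddx4 or the beta-tubulin gene Tubb5. The longest run shared exactly with the longest open reading frame of Tuba1b has 271 bases, and its first 60, at chr13:112594607-112594666 on the minus strand of GRCm38, are shown because a read from them has the same letters at both genes.
Gm3226: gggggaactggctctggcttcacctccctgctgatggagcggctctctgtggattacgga

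Across cells, the count of Ddx4 moved with Tuba1b. Pearson's r of log2 (RPM+1) over 57 granulosa cells of DRaqL-SC3-seq was 0.958, first of 2336 genes with a mean of at least 4, and over 81 mESCs it was 0.849, first of 4936. It was 0.977 over 34 granulosa cells in SMART-Seq v4, 0.988 over 39 in DRaqL-SMART-Seq v4, 0.905 over 34 in DRaqL-Smart-seq2 and 0.724 over 70 from the single mouse, first in each. Over 30 later oocytes Tuba1c stood first with 0.961, and over 14 primary-follicle oocytes Tuba1b had 0.582 and rank 291. Cells of a set share their protocol and differ in depth, and these values are descriptions. The reads themselves were not analysed here, so that the part of tubulin reads in the count of Ddx4 was not tested, and no level of Ddx4 from the 3′ libraries is read here as expression of the gene.

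Dicer1 was also read by exon, since mouse oocytes are known to start a Dicer1 transcript from a retrotransposon promoter inside an intron, which leaves out the first exons. The transcript used has 27 exons. Exons 1 to 6 held 6 of 4881 exon reads in 5 oocytes, 0.123% (Clopper-Pearson 95% interval 0.0451% to 0.267%), all on exon 6. Of these, 5 came from 1 oocyte, and without it the share was 0.0267%. In 10 mESCs exons 1 to 6 held 0 of 2134 reads, which allows a share of up to 0.141% by the floor of 3 counts and has a Clopper-Pearson 95% upper limit of 0.173%. The start of the gene was thus nearly without reads in both cell types, and a difference there was not detectable at this depth. The reads lean to the 3′ end in these libraries, so that the empty exons were not taken as left out of the transcript.

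A block that was picked out after its values were seen differed. Exons 7 and 8, just after that stretch, held 88 and 413 reads in oocytes and 0 and 0 in mESCs. In oocytes this was 10.3% of the Dicer1 reads (9.43% to 11.2%), with between 74 and 121 reads and between 8.44% and 12.1% in each of the 5 oocytes. All mESC reads, 2134, lay on exons 23 to 27, which held 4366 of the oocyte reads, and exons 9 to 22 held 8 reads in oocytes and 0 in mESCs. Per 1000000 exon reads, Dicer1 had 138.2 in oocytes and 20.7 in mESCs, with between 5 and 642 reads per mESC, and the fresh and LCM labels of the mESCs were pooled. Junction reads of Dicer1 were 529 on 7 junctions in oocytes and 196 on 3 junctions in mESCs. The origin of the reads on exons 7 and 8 was not tested.

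**Figure D4:**
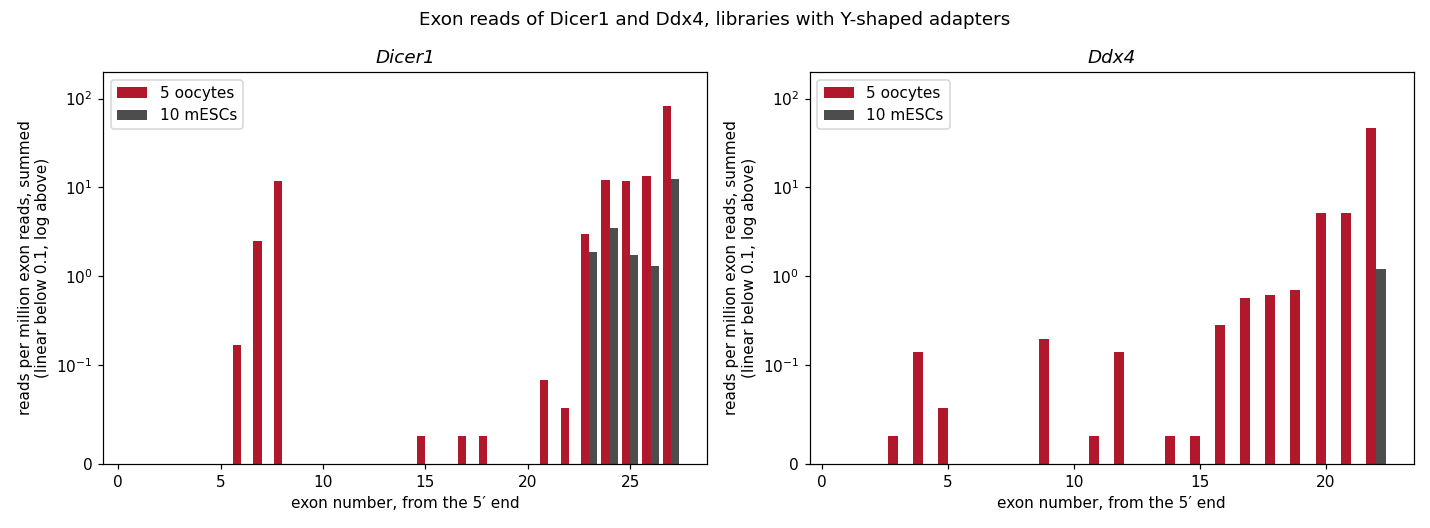
Reads per 1000000 exon reads on each exon of Dicer1 (27 exons) and Ddx4 (22 exons), numbered from the 5′ end, summed over 5 oocytes (red) and 10 mESCs (grey), on an axis that is linear below 0.1 and logarithmic above. Oocyte reads of Dicer1 stand on exons 7 and 8 and from exon 23 on, those of mESCs from exon 23 on, and Ddx4 reads of mESCs stand on the last exon.

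The other members were read from the same exon tables. Per 1000000 exon reads, Tdrd1 had 230.4 in oocytes and 1 read in all mESCs, Tdrd9 had 26.8 and 1 read, and Mael 51.8 and 0 reads, with reads on all 12 of its exons in oocytes. Mov10l1 had 36.6 in oocytes and 1.70 in mESCs on the same scale. Piwil2 had 8.92 in oocytes and 4.92 in mESCs on that scale. Its reads were 315 in oocytes, 254 of them on the last of 23 exons, and 507 in 4 of the 10 mESCs, all on the last exon. Ago2 had 19.8 in oocytes and 27.5 in mESCs, which had reads on the last exon only. Like Dicer1, Ago2 had an upstream block in oocytes, also seen only after its values were known, with 224 of 701 reads (31.9%) on exons 2 and 3 of 19, each in 4 of the 5 oocytes, 0 on exons 4 to 16, and 0 on all of these in mESCs. Junctions were read in oocytes for Mael (353 reads), Tdrd9 (212), Mov10l1 (210), Tdrd1 (140) and Ago2 (84), and not for Piwil2, and in mESCs for Mov10l1 alone among these (30 reads). Oocytes and mESCs differed in depth, with 6462959 to 7865860 and 6200968 to 16296631 exon reads per library.

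The single proestrus mouse allowed captured and dissociated oocytes to be set side by side, although isolation, lysis and the labelled growth class differ together and cannot be told apart. Of the 8 genes, 3 differed by at least 1, where 40.6% of all genes did, and all 3 were higher in captured oocytes. Piwil2 had between 0 and 233.8 RPM in 8 captured oocytes (median 16) and between 0 and 8.91 RPM in 14 dissociated ones (median 0), a difference of 2.91. Mov10l1 differed by 1.69 and the count of Ddx4 by 1.36. Dicer1 had means of 8.65 ± 0.55 and 8.80 ± 0.25 and Ago2 of 6.69 ± 1.13 and 6.89 ± 0.29, differences within the larger SD. Mael was 7.52 ± 0.42 in captured and 8.21 ± 0.17 in dissociated oocytes, and Tdrd1 8.91 ± 0.17 and 8.17 ± 0.31, differences below 1 but above the SDs.

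Serial sections of 8 oocytes gave the error of a captured section. Between sections of the same oocyte the SD of the difference in log2 (RPM+1) was 0.26 for Tdrd1, 0.37 for Dicer1, 0.49 for Ddx4, 0.56 for Ago2, 0.67 for Piwil2, 0.73 for Mael, 1.34 for Mov10l1 and 1.78 for Tdrd9. Piwil2 differed more between oocytes than within them, with SDs of 2.01 and 0.48, and its Pearson's r over the 8 pairs was 0.952. For Tdrd1, Tdrd9, Mael and Ago2 the SD within oocytes was the larger. Single values of Tdrd9 and Mov10l1 therefore carried the largest error among the 8 genes.

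Other genes of the pathways were read from lists of 20 piRNA genes and 12 microRNA and RNAi genes, of which 17 and 12 were above the minimum level in DRaqL-SC3-seq. Between stages, 8 of the 17 piRNA genes were higher in later oocytes, where 32% of all genes were, and 2 lower, where 14.9% were. Tdrd12, which acts in piRNA amplification, had means of 2.96 ± 1.95 and 7.25 ± 1.32, and Spocd1, which is required for piRNA-directed DNA methylation, 0.25 ± 0.42 and 4.45 ± 1.54. Mybl1, the transcription factor of pachytene piRNA genes, differed by 2.50, Henmt1, the piRNA methyltransferase, by 2.29, Piwil1 by 2.04, Pld6 by 1.62, Mov10 by 1.29 and Tdrkh by 1.20. Fkbp6, a cochaperone of PIWI proteins, was lower by -2.55 (7.81 ± 0.66 to 5.26 ± 1.05), and Pnldc1, which trims piRNA ends, by -1.05. The list's median difference was 0.95, against 0.33 for all genes. In SMART-Seq v4, 7 of 17 were higher and 2 lower (33% and 15.7% of all genes), in DRaqL-SMART-Seq v4 9 of 17 and 2 (35.2% and 22.2%), and after formalin 6 of 18 and 6 (27% and 24.7%).

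Of the 12 microRNA and RNAi genes, 4 were higher in later oocytes, a share near the 32% of all genes, and 4 lower, against 14.9%. Xpo5, the exporter of microRNA precursors, differed by 3.50 (1.32 ± 1.29 to 4.82 ± 0.56), Tarbp2, a Dicer partner, by 1.44, Tnrc6c by 1.30 and Dgcr8, the partner of Drosha, by 1.06. Prkra, the other Dicer partner, differed by -2.84 (4.85 ± 2.34 to 2.01 ± 1.29), Tnrc6a by -1.48, Drosha by -1.27 and Ago1 by -1.18. Partners of the same enzyme thus stood on opposite sides. The list's median was -0.57.

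Against granulosa cells, 15 of 17 piRNA genes were higher in oocytes and none lower, where 71.4% of all genes were higher, with Gtsf1, a piRNA cofactor, at 8.82 ± 0.50 against 1.54 ± 2.60, Fkbp6 at 5.51 higher with no overlap, and Tdrd5 at 5.36 higher. The other genes called were Tdrd12 at 5.11, Tdrkh at 4.71, Asz1 at 4.68, Pnldc1 at 4.39, Exd1 at 4.22, Rnf17 at 3.76, Henmt1 at 3.64, Mybl1 at 2.91, Spocd1 at 2.59, Pld6 at 2.34, Piwil1 at 2.27 and Tdrd7 at 1.99. Tex15, at 7.79 and 6.79, and Mov10, at 3.57 and 4.54, were within 1. Of the microRNA genes 10 of 12 were higher, not far from that background, from Tnrc6a at 1.17 to Drosha at 4.63 and Tarbp2 at 5.05, and Dgcr8, Xpo5, Prkra, Ago3, Ago4, Tnrc6b and Tnrc6c lay between them.

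Against LCM mESCs all 17 piRNA genes were higher in oocytes, where 54.2% of all genes were, from Tdrd12 at 1.12 to Gtsf1 at 8.24. Of the microRNA genes, Snd1 at 4.89, Tnrc6b at 4.67, Ago3 at 3.75, Tnrc6c at 1.88 and Ago4 at 1.40 were higher, Ago1 at -1.85 and Dgcr8 at -1.22 lower, and Drosha at -0.07, Xpo5 at -0.09 and Tarbp2 at -0.03 were nearly level.

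Genes with the most similar pattern to each member were taken by Pearson's r of group means over the 28 groups, among 11243 genes with a group mean of at least 4. For Tdrd1 these were Nobox (0.992) and Lhx8 (0.991), transcription factors of early oocytes, and Slc30a3 (0.990). For Mael they were Lhx8 (0.989), Gda and Esrp1, and for Tdrd9 Dcpp1 (0.976) and Dcpp2, which are close paralogs whose reads can be shared, and Figla (0.969), a factor of oocyte genes. Wscd2 stood first for both Mov10l1 (0.979) and Piwil2 (0.958), followed by Myo15b and Pkib for the first and Neb and D930020B18Rik for the second. Dicer1 was nearest to Pacrgl (0.959), Ccdc14 and Alkbh5, Ago2 to Klf13 (0.917), Sirt1 and Cep85, and the count of Ddx4 to Rrm2b (0.914), Slc22a27 and Adgb. The groups share protocols and cell types, so that any oocyte gene scores high.

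Among the members themselves, Tdrd1 and Mael had an r of 0.974 over the 28 groups, Tdrd1 and Tdrd9 0.946 and Piwil2 and Mov10l1 0.940. Dicer1 and Ago2 had 0.781. The count of Ddx4 had between -0.29 and 0.08 with the other 7.

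The pools of 10 granulosa cells were the replicated groups, and they were compared between neighboring and non-neighboring cells by edgeR's quasi-likelihood F-test over 12490 genes, of which 36, 0.288%, passed an adjusted p of 0.05. None of the 3 members that passed the filter on low counts was called, and 5 did not pass it. At an unadjusted p under 0.05 in edgeR there was 1 of the 3, Dicer1, where 604 of the 12490 genes were. DESeq2 called 1 member, Tdrd1, and 565 of 18265 genes in all. Nearly all reads of Tdrd1 lay in the neighboring pools, so that this call is not taken as support. DESeq2 gave no adjusted p for Mov10l1 and Mael. The labels name no animals for the pools, so that the test measures the spread between pools.

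Dicer1 had 20.5, 91.3 and 329.9 RPM as lowest, median and highest of the 7 neighboring pools and 7.39, 47.8 and 78 RPM in the 7 non-neighboring pools. The groups overlapped. The log2 fold change was 1.56 (SE 0.67, edgeR p = 0.0326, adjusted p = 0.961). Ddx4 had a log2 fold change of 0.62 and Ago2 of -0.72, both with an adjusted p of 0.999 in edgeR.

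Tdrd1 did not pass the filter. The neighboring pools had 0, 20.8 and 283.4 RPM and the non-neighboring pools 0, 0.156 and 0.600 RPM. It was above every non-neighboring pool in 6 of the 7 neighboring pools and without a read in the other. In edgeR without the filter its log2 fold change was 8.24 (SE 1.68), with an adjusted p of 0.0513 over 33401 genes. In DESeq2 it was 8.47 with an adjusted p of 5.98e-07. In edgeR without the pools numbered 7 it was 8.43 with an adjusted p of 0.0677, and there it passed the filter through the neighboring pools alone. In each of these fits nearly all its reads came from the neighboring pools, so that none of these p-values is taken as support. The non-neighboring pools held 8 reads of Tdrd1 in all and the neighboring pools 2677, so that these fitted folds depend on the prior count and are no measure of size. Oocyte markers differed between the groups as well, and all 14 had reads in both. Their sum lay between 856.2 and 8865 RPM in neighboring pools and between 2.34 and 151.1 RPM in non-neighboring ones. The neighboring pool without a read of Tdrd1 thus had at least 856.2 RPM of them. Markers and Tdrd1 were not compared pool by pool, and the part of the markers in the Tdrd1 values was not tested. The 4 theca and stroma markers also differed, with a median sum of 0.412 RPM (at most 593.0) in neighboring and 222.0 RPM (at most 1282) in non-neighboring pools, and their part in these values was not tested either. Mael had at most 2 reads in any pool. In bulk RNA, fewer cells of a type and less RNA per cell cannot be told apart.

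**Figure D5:**
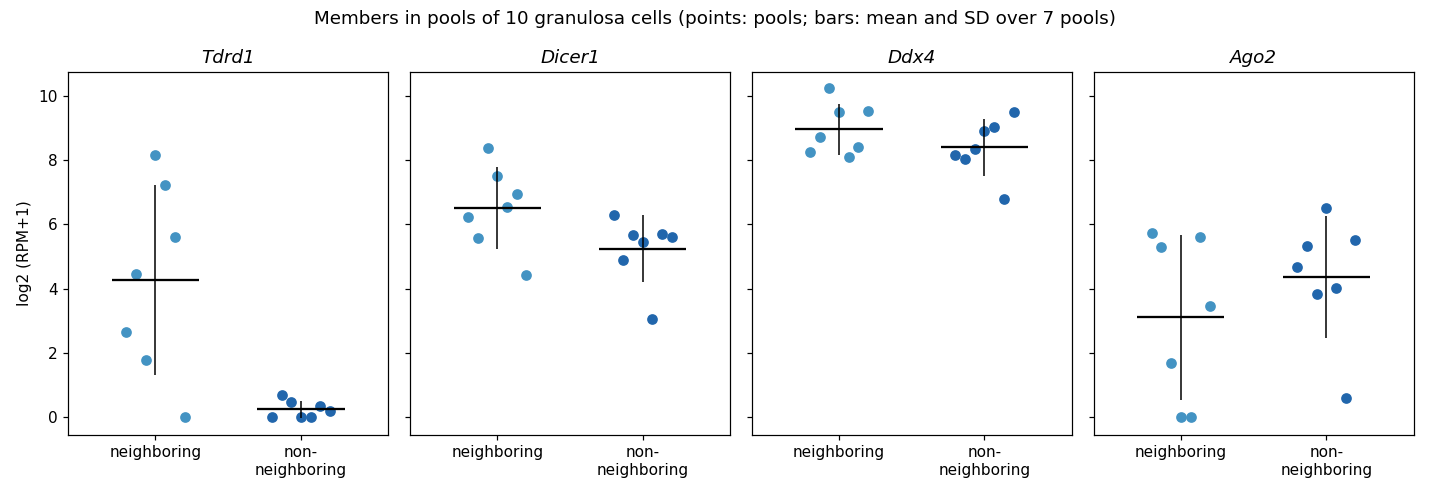
Log2 (RPM+1) of Tdrd1, Dicer1, Ddx4 and Ago2 in 7 neighboring and 7 non-neighboring pools of 10 granulosa cells, with points for pools and bars for the mean and SD. Tdrd1 is above all non-neighboring pools in 6 of 7 neighboring pools, and the other genes overlap.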

How the data were processed

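Single cells, pools and bulk samples were read from tables of read counts per gene, and libraries with Y-shaped adapters from tables of read counts per exon and per junction, all as deposited by the authors. According to the submitters' processing notes, the authors used fastp 0.20.0, cutadapt 1.16, HISAT2 2.1.0, HTSeq 0.10.0 and featureCounts 2.0.1 on GRCm38, and gene counts of the 3′ libraries were taken within 10 kb of 3′ ends. The authors' tables of spike-in RNAs were not used.

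Counts were divided by each library's protein-coding total to give RPM, and log2 (RPM+1) was averaged over cells. A gene entered a comparison with a mean of at least 1 in 1 group. The named genes were the 8 members, 20 piRNA and 12 microRNA and RNAi genes by fixed lists, and for each member the 3 genes of highest Pearson's r. Members and lists were chosen with earlier results of these data known. Exact 95% intervals were Poisson for summed counts and Clopper-Pearson for shares and hold counting error alone, and a count of 0 was set to a floor of 3 counts. Exons were taken from 1 transcript a gene, the one with the most exons. Pools were fitted over a table of 45905 genes with edgeR 4.0.16 (TMM, filterByExpr, quasi-likelihood F-test, Benjamini-Hochberg) in R 4.3.3. Scripts ran under Python 3.11.15 (numpy 2.4.6, pandas 2.3.3, scipy 1.17.1, matplotlib 3.10.9) with the seed 20230918 and were tested on simulated data.

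Alternatives were pseudocounts of 0.1 and 10, TMM scaling, ratios of summed counts, thinning to the shallowest library, no filter, DESeq2 1.42.0, RLE, other splits and averages of the Dicer1 exons, the pool number as a block, granulosa cells without those rich in oocyte markers, and each replicate left out in groups of up to 5. After seeing the data, 3 were added: protein-coding genes only for the pools, granulosa cells without those numbered 73 to 100, and DRaqL-SMART-Seq v4 without 1 primary-follicle oocyte. The fresh and LCM labels of the 10 mESCs with exon counts were pooled.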

Additional observations from a re-analysis of the deposited data

Results flagged for a closer look

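In groups of 4 to 10 libraries, 48 member and group combinations were looked at for a library far from the others, and chance marks about 5% of them. Piwil2 had a log2 (RPM+1) of 2.903 in 1 primary-follicle oocyte of the formalin-fixed sections, where the other 4 lay between 5.69 and 6.82. Tdrd9 had 0.0 in the primary-follicle oocyte numbered 2 of DRaqL-SMART-Seq v4, against 6.11 to 8.42 in the others, and Mael had 3.548 in the same oocyte, against 6.60 to 7.95. That oocyte had the fewest reads of its group, 467352, and its part in the 2 values was not tested. The 3 granulosa cells that the authors kept apart as mixed profiles enter no comparison above. Among them the highest Mael was 90.26 RPM, with 12.8 and 0 RPM in the others, and their oocyte markers summed to 1487, 2949 and 11800 RPM.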

How the results depend on the processing

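Of the results that answer a comparison, 95 values under an alternative stayed near the main value and 9 moved. Near meant within a fixed ratio for a count of members and within the 95% interval for the Dicer1 share. Between stages only the members higher in later oocytes were counted this way. The count of lower members was not put under the alternatives, apart from the primary-follicle oocyte left out in DRaqL-SMART-Seq v4. The members higher in later oocytes numbered 1 instead of 2 in SMART-Seq v4 by the ratio of summed counts, in DRaqL-SMART-Seq v4 with a pseudocount of 10, by the ratio of summed counts and without the primary-follicle oocyte numbered 2, and after formalin with a pseudocount of 10. After formalin, leaving out each primary-follicle oocyte in turn gave between 1 and 2, with 1 without oocyte 1 or oocyte 2. Against granulosa cells Ago2 turned direction by the ratio of summed counts, to -0.508 in DRaqL-SC3-seq and -0.034 in SMART-Seq v4. In the pools, DESeq2 called 1 member, Tdrd1, nearly all of whose reads lay in the neighboring pools. The share of Dicer1 reads on exons 1 to 6 lay between 0.02675% and 0.1672% when each oocyte was left out, with the lowest without oocyte 1. Of the values of single members, 627 kept and 79 moved, where a difference between groups of cells kept if it shifted by no more than the pooled SD.

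Over all genes of the pools, 36 were called, 565 by DESeq2, 42 without the filter, 30 by RLE and 44 over protein-coding genes. Leaving out the pools of 1 number gave 8 without 1, 20 without 2, 3 without 7 and 0 without 3, 4, 5 or 6, where between 471 and 580 had an unadjusted p under 0.05 in edgeR. The replicate block on the pool number called 0 of the members and 0 genes in all, with 703 at an unadjusted p under 0.05. Same-numbered pools had correlations of their deviations between 0.012 and 0.199, all positive, and 3 of 7 correlated best with their own number. These values do not settle whether the numbers pair the samples. The fit without the block was kept as the main one, with the block as an alternative. TMM scaling moved the median of all genes by over 0.1 in 9 comparisons of cells, from -0.307 against mESCs to 0.464 in the dissociated ovary. None of the counts of members put under the alternatives changed by it, and the counts of lower members were not among them. The Dicer1 result could not be recomputed from junction reads, since the oocyte table gives no coordinates, and that alternative was not run. Single cells without a named animal, and levels near 1 read in shallow granulosa cells, limit the depth at which low members can be read.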
